A study of Mus musculus with 16 samples.

Results

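A group of 8 genes of the cholesterol pathway were followed across 16 RNA-seq libraries of cultured mouse heart slices. They were chosen by name, with no measured value in the rule: the rows of the count table whose Ensembl identifiers map to Hmgcs1, Sqle, Idi1, Fdft1, Lss, Cyp51, Dhcr7 and Insig1. These are 8 of the 55487 genes listed, and all 8 were among the 24971 genes tested. The set was proposed as synthesis and uptake genes, but 7 members encode enzymes of cholesterol synthesis and Insig1 encodes a regulator of the pathway. No uptake gene is a member, so uptake genes were described as a separate list.

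The slices came from hearts of male mice aged 8 weeks, either WT (C57Bl6/J) or Swhtr null (labelled Swhtr3xpA/3xpA, carrying on both alleles an inserted polyadenylation signal that stops transcription of the long non-coding RNA Swhtr). Untreated slices of both genotypes were kept at 21% O2 for 14 days, and treated slices at 3% O2 for 7 days and then at 21% O2 for 7 days. According to the paper, the null line was made in hybrid stem cells, backcrossed to C57Bl6/J and then kept by mating homozygotes. Each of the 4 groups held 4 libraries. The 8 libraries of a genotype came from 4 mice, so some libraries shared a mouse, and which ones is not given in the sources used here. The p-values therefore measure the spread between slices, which may be partly that of cultures rather than of animals.

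Cholesterol is made from acetyl-CoA through the mevalonate pathway, then squalene, lanosterol and a series of sterol intermediates. Most genes of the pathway are switched on together by SREBP-2, a membrane-bound transcription factor which SCAP escorts to the Golgi for cleavage when membrane cholesterol is low. INSIG proteins hold SCAP in the endoplasmic reticulum when sterols are plentiful, and Insig1 is itself an SREBP target. Squalene epoxidase and lanosterol demethylase use molecular oxygen, as do SC5D and MSMO1.

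The libraries held 17830351 to 29941903 counts, of which 3805 to 6941 fell on the 8 members. No replicate pair agreed within counting noise (lowest chi-square per degree of freedom 7.62). The tissue label was checked against marker genes. The 8 cardiomyocyte markers summed to only 4.92 to 91.9 CPM per library (counts scaled to a common library size with edgeR's TMM factors). Myh7 and Pln never exceeded 0.611 and 0.726 CPM, and Myh6 lay between 0.0513 and 21.0 CPM. The 8 fibroblast markers summed to 22660 to 32840 CPM. Markers of the cell in which Swhtr is known to be expressed were therefore scarce, and Swhtr has no row by which the genotype could be checked. Swhtr null treated replicate 2 stood apart, with the lowest macrophage marker sum (3979 CPM) and the highest cardiomyocyte marker sum (91.9 CPM).

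The stretches around the starts of 4 members are shown because these 4 varied together from library to library, as described further on. They are RefSeq sequences of build GRCm38.p6, from 250 bases before to 50 bases after the annotated start, 5′ to 3′ on the strand of the gene. They lie at chr13:119690101-119690400 (Hmgcs1, plus strand), chr13:8885356-8885655 (Idi1, plus), chr5:4104648-4104947 (Cyp51, minus) and chr5:28071162-28071461 (Insig1, plus). Capitals mark matches, on either strand, to a sterol regulatory element written as TCACNCCAC, to a CCAAT box (CCAAT) and to a GC box (GGGCGG), and none of the matches overlapped another.
Hmgcs1: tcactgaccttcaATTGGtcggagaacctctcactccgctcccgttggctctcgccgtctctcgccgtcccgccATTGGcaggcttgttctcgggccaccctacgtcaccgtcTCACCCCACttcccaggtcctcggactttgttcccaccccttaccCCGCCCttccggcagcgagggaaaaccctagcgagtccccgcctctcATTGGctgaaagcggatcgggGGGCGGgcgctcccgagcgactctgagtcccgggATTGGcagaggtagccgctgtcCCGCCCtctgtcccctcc
Idi1: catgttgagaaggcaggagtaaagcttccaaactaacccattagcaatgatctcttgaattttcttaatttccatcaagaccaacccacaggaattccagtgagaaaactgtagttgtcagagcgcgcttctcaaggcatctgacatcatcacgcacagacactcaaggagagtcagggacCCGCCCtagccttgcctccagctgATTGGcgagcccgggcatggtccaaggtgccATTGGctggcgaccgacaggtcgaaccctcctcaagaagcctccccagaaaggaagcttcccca
Cyp51: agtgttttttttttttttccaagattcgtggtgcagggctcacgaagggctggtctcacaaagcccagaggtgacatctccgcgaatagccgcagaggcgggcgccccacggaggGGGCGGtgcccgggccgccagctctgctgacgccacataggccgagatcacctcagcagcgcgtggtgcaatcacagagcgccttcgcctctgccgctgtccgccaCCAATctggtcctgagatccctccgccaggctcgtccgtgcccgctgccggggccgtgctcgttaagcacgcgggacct
Insig1: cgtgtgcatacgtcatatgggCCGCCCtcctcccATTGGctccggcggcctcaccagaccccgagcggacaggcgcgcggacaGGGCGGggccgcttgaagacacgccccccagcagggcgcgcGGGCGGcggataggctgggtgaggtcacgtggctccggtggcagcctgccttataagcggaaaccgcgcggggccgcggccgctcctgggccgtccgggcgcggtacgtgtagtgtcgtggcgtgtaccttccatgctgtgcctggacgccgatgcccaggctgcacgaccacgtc

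Hmgcs1 was the only member with the sterol regulatory element in this spelling, 1 match beginning at base -137, against 1.24% of all 32851 promoters of that length. The CCAAT box, the site of NF-Y, which often binds beside SREBP, was found in 6 of the 6 members with an entry and in 37.4% of all promoters. The GC box, bound by SP1, was likewise found in 6 of 6 members and in 35.7% of all promoters. Lss and Dhcr7, which followed the other members least closely across libraries (r of 0.49 and 0.09 with the mean of the other 7), also held both. Dhcr7 has 3 listed starts, and its CCAAT boxes lay at the third. Counts of genes take a match at any listed start, whereas the shares of all promoters count each start by itself. Sqle and Fdft1 had no entry. Among 11 other sterol synthesis enzymes with an entry, 10 held a CCAAT box and 10 a GC box. A match only says that the letters occur there.

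Compared per kilobase of annotated exon, Insig1 was the most abundant member, at 13.96 ± 2.83 CPM per kb (mean ± SD, n = 16), followed by Hmgcs1, which makes HMG-CoA for the mevalonate pathway, at 11.36 ± 1.66. Insig1 was above Hmgcs1, and Hmgcs1 above Cyp51, in 16 of 16 libraries. Cyp51 (lanosterol demethylase) came next at 7.41 ± 1.71. Sqle (squalene epoxidase) at 5.99 ± 0.828, Idi1 (isopentenyl diphosphate isomerase) at 5.92 ± 1.22 and Dhcr7 (which makes cholesterol from 7-dehydrocholesterol) at 5.17 ± 0.600 lay close together, each above the next in only 10 of 16 libraries. Fdft1 (squalene synthase) reached 4.72 ± 0.522 and Lss (lanosterol synthase) 1.39 ± 0.128. The middle of this order depended on the length used: with the length of the principal transcript, Sqle at 12.05 and Dhcr7 at 10.68 CPM per kb stood above Cyp51 at 8.32, while Insig1 and Hmgcs1 stayed first and second and Lss last.

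The members also differed in how much they varied. The highest library exceeded the lowest by 2.33-fold for Cyp51 and 2.07-fold for Idi1, but by only 1.44-fold for Lss and 1.39-fold for Fdft1. Swhtr null untreated replicate 3 was the lowest library for 4 members, Hmgcs1, Sqle, Cyp51 and Insig1, and WT treated replicate 2 the highest for 3, Hmgcs1, Idi1 and Insig1.

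**Figure D1:**
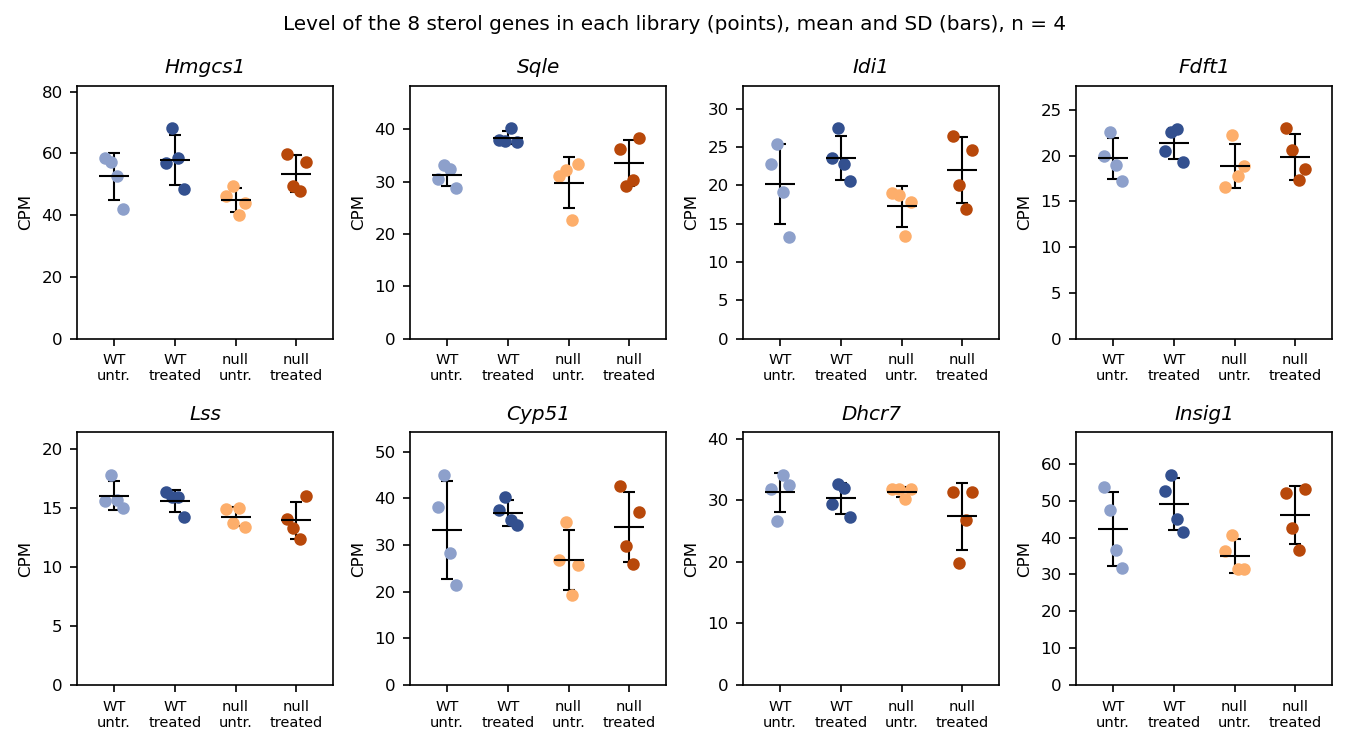
Level in CPM (linear axis from 0) of each of the 8 members in each library, by group; points are libraries in the order of their replicate numbers, horizontal bars the mean and whiskers the SD (n = 4). Sqle is the 1 gene whose WT treated libraries (37.62 to 40.25) all lie above the WT untreated ones (28.85 to 33.20); in the other panels treated and untreated libraries of a genotype overlap.

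The first comparison asked whether the hypoxic week and the recovery week left WT slices with altered expression of these genes. The members differed little: 6 of 8 were higher in treated WT slices, with a median log2 fold change of 0.15, against 51.9% of all genes tested being higher and a median of 0.01. No member was called by edgeR's quasi-likelihood test (adjusted p under 0.05 over all genes and a log2 fold change beyond 0.58, that is 1.5-fold), nor by DESeq2 or limma. Nor was any gene called by edgeR in this comparison (0.0% of those tested). Higher at an unadjusted p under 0.05 was 1 member, Sqle, against 2.62% of all genes.

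Sqle was measured at 30.43, 33.20, 32.37 and 28.85 CPM in the 4 untreated WT libraries and at 37.97, 37.73, 40.25 and 37.62 CPM in the treated ones. Every treated library was above every untreated one. Of the 14229 genes above 1 CPM, 4.43% separated the groups in this way in one direction or the other. The log2 fold change of Sqle was 0.30 (SE 0.10, 95% interval 0.08 to 0.52), with an adjusted p of 0.9994 by edgeR. DESeq2 fitted to the 8 WT libraries alone gave Sqle a log2 fold change of 0.29 and an adjusted p of 0.0258, below the fold threshold.

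In the same WT comparison Insig1 was at 53.83, 47.59, 36.62 and 31.83 CPM untreated and at 52.65, 57.10, 44.97 and 41.62 CPM treated. The groups overlapped, and untreated replicates 3 and 4 were the low libraries. The log2 fold changes were 0.21 (SE 0.17) for Insig1, 0.23 (SE 0.18) for Idi1, 0.15 (SE 0.23) for Cyp51, 0.14 (SE 0.11) for Hmgcs1 and 0.12 (SE 0.11) for Fdft1. Lss and Dhcr7 were the members with negative values, -0.04 and -0.05. The 95% intervals of the 8 members ran from -0.34 to 0.64, both ends set by Cyp51, so changes in WT beyond 1.56-fold up or 0.79-fold down lie outside every member's interval.

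The second comparison asked the same of Swhtr null slices. Here too 6 of 8 members were higher, with a median log2 fold change of 0.21, against 51.6% of all genes higher and a median of 0.01. No member was called by edgeR, DESeq2 or limma, where edgeR called 155 genes (0.621% of those tested). That count of all genes rested on single null libraries: it was 575, 49 and 22 without untreated replicates 2, 3 and 4, and 77, 80 and 300 without treated replicates 1, 2 and 3. Hmgcs1 and Insig1, 2 of 8, were higher at an unadjusted p under 0.05, against 8.69% of all genes. Without untreated replicate 3 or 4, or without treated replicate 1 or 4, 0 of 8 were higher at that p. The count was 1 of 8 without untreated replicate 1 and 3 of 8 without treated replicate 2 or 3. It was 4 of 8 by limma, and 3 of 8 in the fit of all 16 libraries with a replicate block, described below. Without treated replicate 1, and likewise without treated replicate 4, 1 of 8 was lower at that p. No member separated its groups without overlap, which 10.3% of genes above 1 CPM did. Without Swhtr null treated replicate 2, which stood apart, the median was 0.26, while without treated replicate 1 or 4 it was 0.16 and without untreated replicate 3 it was 0.13. No member was called in any of these fits.

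Insig1 was measured at 36.44, 40.83, 31.38 and 31.44 CPM in the untreated null libraries and at 52.20, 42.67, 36.51 and 53.12 CPM in the treated ones. Treated replicates 1 and 4 were high, while replicate 3 fell within the untreated range, and the treated library was the higher in 15 of the 16 possible pairs. The log2 fold change was 0.40 (SE 0.17, 95% interval 0.03 to 0.76; adjusted p = 0.259, edgeR), from a mean of 35.02 ± 4.54 to 46.13 ± 7.96 CPM (SD, n = 4).

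Hmgcs1 was at 46.18, 49.44, 40.11 and 43.90 CPM untreated and at 59.89, 49.24, 47.64 and 57.02 CPM treated in the null slices. The same treated libraries, replicates 1 and 4, were high, and the others reached into the untreated range. Its log2 fold change was 0.25 (SE 0.11, 95% interval 0.01 to 0.49; adjusted p = 0.276, edgeR).

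Idi1 and Cyp51 repeated this arrangement. Idi1 was at 19.02, 18.78, 13.37 and 17.85 CPM in untreated null libraries and at 26.38, 19.99, 16.90 and 24.63 CPM in treated ones. Cyp51 was at 26.88, 34.98, 19.40 and 25.75 CPM untreated and at 42.58, 29.79, 25.99 and 37.12 CPM treated. Both groups overlapped for both genes, with treated replicates 1 and 4 highest. Their log2 fold changes were 0.35 (SE 0.19) and 0.34 (SE 0.23), with adjusted p of 0.373 and 0.501 by edgeR.

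Sqle, Fdft1 and Lss had log2 fold changes of 0.17, 0.07 and -0.03 in the null slices. Dhcr7 was the member with the most negative value, at 31.77, 31.83, 30.18 and 31.75 CPM untreated and at 31.37, 19.81, 26.84 and 31.39 CPM treated. Treated replicate 2 was the low library, and the other treated libraries lay below or within the narrow untreated range. The log2 fold change of Dhcr7 was -0.20 (SE 0.11; adjusted p = 0.393, edgeR), and -0.07 without that library. With each library left out in turn it ran from -0.273 to -0.073. Over the 8 members the 95% intervals ran from -0.44 (Dhcr7) to 0.84 (Cyp51), so the interval of Cyp51 reached 1.79-fold.

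Same-numbered treated and untreated null libraries deviated together, so the replicate number was also fitted as a block. The own number was the best match in 3 of 4 null pairs and 2 of 4 WT pairs. Between the genotypes, where no mouse is shared, it was the best match in 3 of 4 untreated and 1 of 4 treated pairs. In the fit of all 16 libraries the block also joined same-numbered WT and null libraries, which came from different mice. With this replicate block the count of genes called by edgeR in the null response was 450, and that of members was again 0. Fitted with the block on the 8 null libraries alone, Idi1 and Insig1 reached adjusted p of 0.0354 and 0.0413 by edgeR, with log2 fold changes of 0.34 and 0.38, below the fold threshold. The same fit on the 8 WT libraries gave them 0.25 and 0.22, with adjusted p of 0.416 and 0.235 by edgeR. Sqle had 0.30 there, with an adjusted p of 0.0561. In each of these blocked fits 4 of 8 members were higher at an unadjusted p under 0.05.

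**Figure D2:**
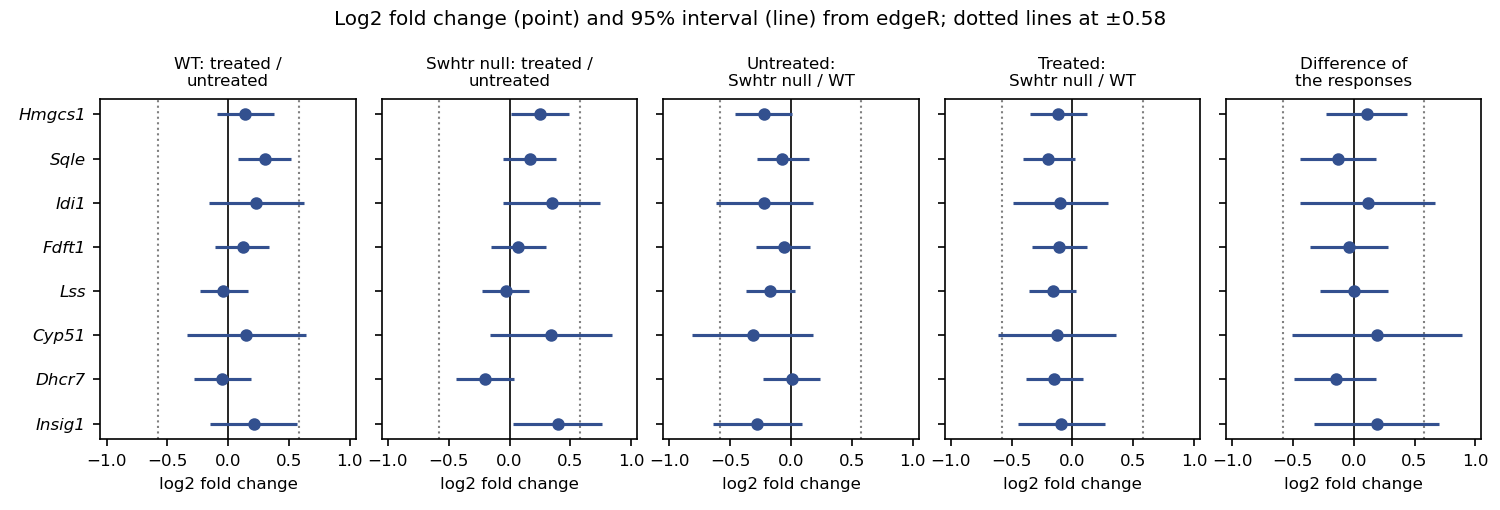
Log2 fold change (points) and 95% interval (lines) of the 8 members from edgeR in the WT response, the Swhtr null response, Swhtr null against WT in untreated and in treated slices, and the difference of the responses; dotted lines mark ±0.58. No point lies beyond a dotted line, and the intervals of Cyp51 are the widest in every panel.

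Swhtr null slices were compared with WT slices in each condition to ask whether these levels differed between the genotypes. As the null line was bred apart, an effect of Swhtr cannot be told apart from other differences between the lines. In untreated slices 7 of 8 members were lower in the null, with a median log2 fold change of -0.19, where 50% of all genes were lower and their median was 0.00. None was called by edgeR, which called 25 genes (0.1%), or by DESeq2 or limma. None had an unadjusted p under 0.05, but without WT untreated replicate 4 the count was 4 of 8, all lower in the null and none called. It was 1 of 8, also lower, without Swhtr null untreated replicate 2 or without WT treated replicate 2 or 4. The replicate block and edgeR on the untreated libraries alone likewise gave 1 of 8 lower. None separated the genotypes without overlap, as 3.11% of genes above 1 CPM did.

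Lss came closest to separating the genotypes. It was at 15.58, 17.81, 15.70 and 14.98 CPM in untreated WT and at 14.88, 13.72, 15.01 and 13.39 CPM in untreated null libraries. The null library was the higher in 1 of 16 pairs, and the log2 fold change was -0.17 (SE 0.10, 95% interval -0.37 to 0.03; adjusted p = 0.903, edgeR). Cyp51, with the most negative value, had -0.31 (SE 0.23) and an interval from -0.81 to 0.18. This value was -0.48 without WT untreated replicate 4 and -0.13 without WT untreated replicate 2. Untreated WT replicates of Cyp51 stood at 38.19, 45.12, 28.40 and 21.38 CPM, a wider spread than the distance between the means of the genotypes, 33.28 and 26.75 CPM. Dhcr7 was the exception to the direction, at 0.01.

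In treated slices 8 of 8 members were lower in the null, by a median of -0.12 on the log2 scale, where 50.2% of all genes were lower. None was called by edgeR, which called 23 genes (0.0921%), or by DESeq2 or limma. None had an unadjusted p under 0.05 or separated the genotypes without overlap, as 5.12% of genes above 1 CPM did. Without Swhtr null treated replicate 4, 2 of 8 were lower at that p, and without Swhtr null untreated replicate 3, 1 of 8. None of them was called. Values ran from -0.20 for Sqle to -0.09 for Insig1. Sqle was at 36.17, 29.25, 30.34 and 38.36 CPM in treated null slices against the 37.62 to 40.25 CPM of treated WT slices given above. Replicates 2 and 3 of the null were low, and replicate 4 lay within the WT range. These comparisons share their libraries with the treatment comparisons, so their directions are not independent of each other.

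The difference of the responses, null minus WT, was tested as an interaction. Here 5 of 8 members were higher, with a median of 0.06 on the log2 scale, where 50.2% of all genes were higher. No member and no gene of the table was called by edgeR (0.0%), the lowest adjusted p of a member being 0.832, and no member had an unadjusted p under 0.05. DESeq2 and limma called no member. Values ran from -0.15 for Dhcr7 to 0.19 for Cyp51 and Insig1. The 95% interval of Cyp51 ran from -0.51 to 0.89, so a moderate difference between genotypes in its response could not have been told from the spread of 4 libraries a group.

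The libraries differed from each other in these genes more clearly than the groups did. Hmgcs1, Idi1, Cyp51 and Insig1 varied together. Pearson's r of log2 CPM between their 6 pairs was 0.89 to 0.95 over 16 libraries (Spearman's rho 0.90 to 0.94). After the group means were removed it was 0.85 to 0.94. Without the libraries farthest from the median, WT treated replicate 2 and Swhtr null untreated replicate 3, it was 0.88 to 0.93. These 4 genes were singled out after their values were seen. The libraries share mice, depth and composition, and the correlations are given as a description.

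The other members followed this pattern less closely or not at all. Sqle had r of 0.64 to 0.77 with the 4 genes and Fdft1 0.66 to 0.78, although the counts of Fdft1 carry a limit given below. Lss had r of 0.28 to 0.49 with the other members. Dhcr7, the last enzyme of the pathway, had r of -0.06 to 0.32, with a median of -0.01 over its 7 pairs. Over all 28 pairs of members the median r was 0.58.

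**Figure D3:**
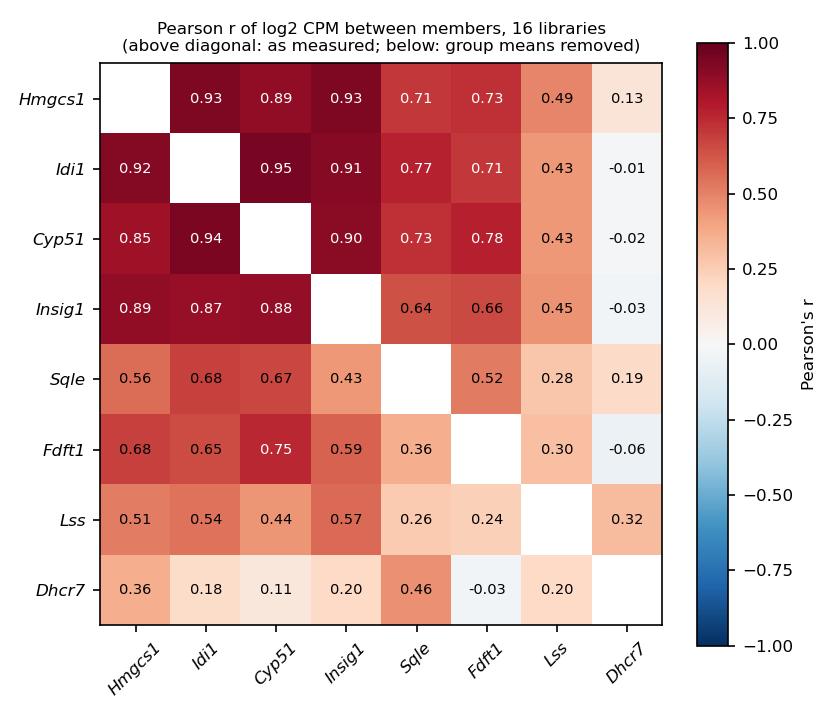
Pearson's r between the log2 CPM of each pair of members over 16 libraries, as measured (above the diagonal) and after group means were removed (below); colour runs from -1 (blue) to 1 (red). The block of Hmgcs1, Idi1, Cyp51 and Insig1 holds the highest values, 0.89 to 0.95 above the diagonal, and the Dhcr7 column lies near 0.

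The members were combined for each library into the mean of their z-scores, with each gene scaled over the 16 libraries. In untreated WT slices this mean was 0.46, 0.75, -0.03 and -0.98, and in treated WT slices 0.65, 1.15, 0.75 and -0.08. In untreated null slices it was -0.50, 0.00, -1.31 and -0.63, and in treated null slices 0.77, -0.68, -0.94 and 0.61. Every group thus spanned more than 1 unit, the groups overlapped, and treated null slices fell into a high pair (replicates 1 and 4) and a low pair. The 8 cardiomyocyte markers divided the same libraries the other way, summing to 10.94 and 6.88 CPM in the high pair and to 91.9 and 64.8 CPM in replicates 2 and 3, and their part in the members' levels was not tested. As mean log2 CPM, the group values were 4.83 ± 0.20, 4.97 ± 0.12, 4.67 ± 0.14 and 4.84 ± 0.20 (SD, n = 4) in the same order.

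Other genes with at least 50 counts on average, 11701 in all, were ranked by their r with this mean over the 16 libraries. Among the 10 most alike were Polr3b (0.91), Uhrf1, Atp5b and Sc5d (0.90 each), Rexo2 (0.89), Arpc5l and Maea (0.88 each), Lmnb1 and Olfml3 (0.87 each). Of these Sc5d, a sterol desaturase, belongs to the pathway. In WT slices the level of Sc5d was 36.78, 45.44, 35.32 and 29.47 CPM without treatment and 45.02, 38.96, 41.50 and 38.25 CPM with it. In null slices it was 34.60, 38.24, 28.28 and 33.49 CPM without treatment and 42.36, 34.84, 30.41 and 39.63 CPM with it. WT untreated replicate 4 and Swhtr null untreated replicate 3, low for the members, were the low libraries of their groups for Sc5d as well, and the groups overlapped. With group means removed, the genes most alike included Uhrf1, Ckap2 and Itpa (0.94 each), Fam198b, mt-Cytb, Maea, Rexo2 and Selenos (0.92 each) and Atp5b (0.91).

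Genes of the pathway were frequent among those that followed the members. An r over 0.7 with the mean of the members was found for 6 of 13 ranked genes of the list of other sterol synthesis enzymes (46.15%), against 337 of the 11701 genes (2.88%). They included Sc5d, Msmo1 (0.86), Hsd17b7 (0.85) and Nsdhl (0.81). Srebf2, the gene for SREBP-2, had r of 0.83, and it is 1 of 9 genes of the SREBP control list past 0.7. In the uptake list 2 of 14 passed, among them Stard4 (0.73), in the fatty acid synthesis list 3 of 12, and in the efflux list 0 of 10. Sets of genes this alike are not independent of each other, so these shares are a description.

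Marker genes of some other cell types varied with the same measure. The summed level of 6 smooth muscle and pericyte markers (Acta2, Myh11, Tagln, Cnn1, Rgs5 and Cspg4) had r of 0.73 with the mean of the members over 16 libraries (rho 0.72, group means removed 0.82, without the 2 farthest libraries 0.64). The sum lay between 271 and 537 CPM in untreated and 343 and 465 CPM in treated WT slices, and between 249 and 380 CPM in untreated and 348 and 634 CPM in treated null slices. None of these markers was at 0, and Tagln was the lowest, at 0.499 to 1.56 CPM. For the other marker sums r was 0.45 for epicardial and mesothelial cells (0.67 without the 2 farthest libraries), 0.21 for adipocytes, 0.18 for fibroblasts, 0.10 for Schwann cells, -0.07 for cardiomyocytes, -0.12 for macrophages and -0.23 for endothelial cells. With group means removed it was -0.42 for cardiomyocytes and -0.47 for endothelial cells. For the total count of a library it was -0.15, and -0.68 with group means removed. A sum follows its most abundant markers. By gene, the median r was 0.59 for smooth muscle and pericyte, 0.58 for epicardial and mesothelial, 0.54 for adipocyte and 0.30 for fibroblast markers. For the other types it was 0.12 (Schwann cell), -0.0 (cardiomyocyte), -0.07 (macrophage) and -0.13 (endothelial). Past 0.7 were 1 of 8 fibroblast markers (Tcf21, 0.78) and 1 of 5 ranked smooth muscle and pericyte markers (Cspg4, 0.73). The part of any of these cell types or of depth in the members' levels was not tested, and in bulk RNA more cells of a type and more RNA per cell cannot be told apart.

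**Figure D4:**
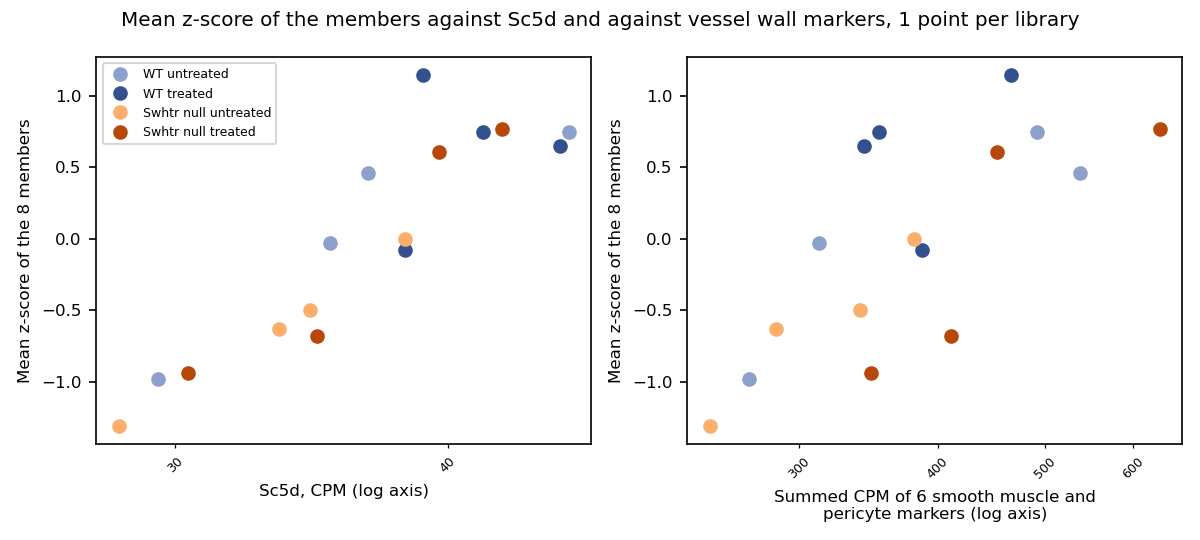
Mean z-score of the 8 members (vertical axis, SD units) in each of 16 libraries against Sc5d in CPM (left) and the summed CPM of 6 smooth muscle and pericyte markers (right), both on log axes; colours are the 4 groups. The points rise with Sc5d (r = 0.90) and, more loosely, with the markers (r = 0.73), with libraries of all 4 groups along the trend.

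The rest of the synthesis pathway resembled the members. Of 14 other sterol synthesis enzymes, 13 were higher in treated WT slices (median log2 fold change 0.13) and 12 in treated null slices (median 0.14). In untreated slices 13 of 14 were lower in the null than in WT (median -0.11). None was called in any comparison by edgeR. At an unadjusted p under 0.05, 0 of 14 were higher in the WT response and 3 in the null response, among them Lbr (log2 fold change 0.21, SE 0.10; adjusted p = 0.271) and Hsd17b7 (0.33, SE 0.15). For the 4 oxygen-using enzymes Sqle, Cyp51, Msmo1 and Sc5d, all 4 values were above 0 in both responses, with medians of 0.20 in WT and 0.15 in the null, and none was called.

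Of 9 genes of SREBP control, 7 were higher and 2 lower in treated null slices, and 6 were higher and 3 lower in treated WT slices. Insig2, the paralog of Insig1, and Mbtps2 were lower in both, Mbtps2 with -0.13 (SE 0.10) in the null and -0.08 (SE 0.10) in WT. Insig2 was at 68.30, 69.46, 68.84 and 72.67 CPM in untreated and at 51.74, 56.25, 58.03 and 58.01 CPM in treated null slices. All treated libraries were below all untreated ones. Insig2 had a log2 fold change of -0.32 (SE 0.07, 95% interval -0.46 to -0.17; adjusted p = 0.0177, edgeR), past the adjusted p but not the fold threshold, so it was not called. In WT slices the value was -0.16 (SE 0.07; adjusted p = 0.9994), from 63.52 ± 6.19 to 56.94 ± 3.34 CPM. The interaction for Insig2 was -0.16 (SE 0.10; adjusted p = 0.738). Scap and Mbtps1, which encodes the first protease to cut SREBP, had values of 0.19 (SE 0.06) and 0.24 (SE 0.07) in null slices, with adjusted p of 0.0998 and 0.0987. Null libraries held 42.60 to 47.07 CPM of Scap when untreated and 49.14 to 52.11 CPM when treated, without overlap. Srebf2 had 0.10 in WT and 0.15 in null slices. No gene of this list was called.

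Idi2, the paralog of Idi1, had too few counts to be tested.

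The 15 genes of uptake and intracellular transport were divided. In null slices 6 were higher and 9 lower after treatment, and in WT slices 11 were higher and 4 lower. Vldlr, a receptor for triglyceride-rich lipoproteins, was at 78.00, 80.31, 96.42 and 76.21 CPM in untreated and at 59.02, 77.18, 62.64 and 54.03 CPM in treated null slices. Only treated replicate 2 reached into the untreated range. Its value was -0.39 (SE 0.10; adjusted p = 0.0486), again short of the fold threshold, and -0.25 (SE 0.10) in WT slices. Gramd1c and Npc2, both for intracellular cholesterol transport, had 1.08 (SE 0.34; adjusted p = 0.104) and -0.31 (SE 0.12; adjusted p = 0.188) in null slices, Gramd1c at no more than 5.48 CPM in any library. None of the 15 was called.

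The 10 genes of efflux, esterification and oxysterols were all lower in treated null slices (0 of 10 higher, median log2 fold change -0.25), while 4 of 10 were higher in WT slices (median -0.03). None was called. Apoe, a lipoprotein component secreted in quantity by macrophages, had -1.18 (SE 0.38; adjusted p = 0.140, edgeR) in null slices, from 4043, 1538, 4446 and 5046 CPM to 1451, 1087, 2926 and 1167 CPM. The lowest untreated library, replicate 2, was within the treated range. Nr1h2, which encodes the oxysterol receptor LXR beta, had -0.15, Cyp27a1, a sterol hydroxylase, -0.52, and Abca1, the cholesterol exporter, -0.40 (SE 0.24). The 10 macrophage markers moved the same way in null slices, 10 of 10 lower with a median of -0.55, their sum going from 7871 to 12440 CPM untreated to 3979 to 9858 CPM treated. None of them was at 0. In WT slices the sum was 9286 to 11690 CPM untreated and 9006 to 10490 CPM treated. The part of macrophage content in the efflux genes was not tested.

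Fatty acid synthesis, driven mainly by SREBP-1c, was higher in 12 of 12 genes of treated null slices (median log2 fold change 0.31) and in 11 of 12 of treated WT slices (median 0.17), with none called. Gpam, the first enzyme of glycerolipid synthesis, was at 46.79, 60.29, 52.13 and 43.70 CPM in untreated and at 99.64, 91.19, 68.92 and 88.97 CPM in treated null slices. All treated libraries were above all untreated ones. Its log2 fold change was 0.78 (SE 0.20; adjusted p = 0.0700, edgeR), and 0.35 (SE 0.20) in WT slices. Fasn and Acaca, the fatty acid synthase and the acetyl-CoA carboxylase, had 0.66 (SE 0.24; adjusted p = 0.198) and 0.32 (SE 0.10; adjusted p = 0.0933) in null slices, also without overlap. Adipocyte markers were higher as well, 5 of 5 in both responses with medians of 0.72 and 0.63 in null and WT, and their part in the fatty acid genes was not tested.

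**Figure D5:**
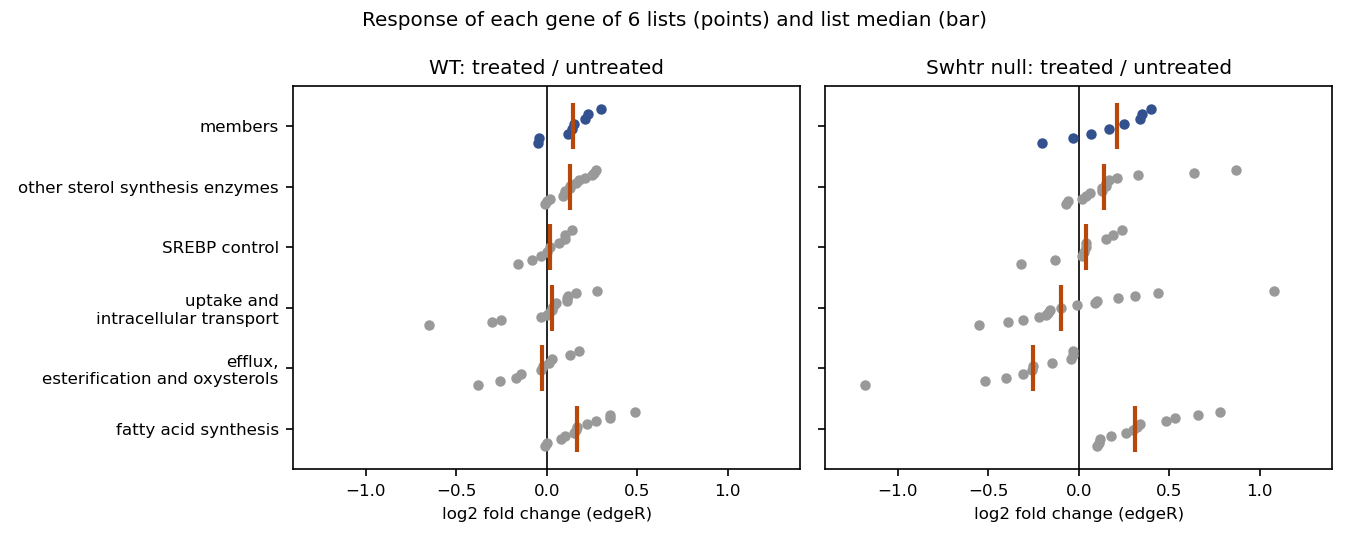
Log2 fold change (edgeR) of each gene in 6 lists, treated against untreated, in WT (left) and Swhtr null slices (right); points are genes, sorted within a list, and bars list medians. The members (blue) have medians of 0.15 and 0.21, the efflux list -0.03 and -0.25, and the fatty acid synthesis list 0.17 and 0.31.

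Some counts may include reads of other genes or lack shared reads, because no source used here gives a strand setting for the counting. Fdft1 shares 774 exonic bases with Ctsb on the opposite strand, and Ctsb, a lysosomal protease, was at 3739 to 9519 CPM against 16.62 to 23.03 CPM for Fdft1. Across libraries the levels of Fdft1 and Ctsb had r of -0.40. Group means per kb of exon were 1084 to 1375 CPM for Ctsb and 4.46 to 5.05 CPM for Fdft1. How reads on the shared bases were assigned was not tested. Cyp51 shares 166 bases with Akap9 (r = -0.01). Hmgcs1 and Lss overlap antisense RNAs by 557 and 381 bases, and Idi1 overlaps by 323 bases a gene, Gm48574, whose annotated type is still to be established. Idi1 has a processed pseudogene, Gm13502, identical over 684 bases, which was given 1290 counts in all against 7378 for Idi1. Gm13502 had log2 fold changes of 0.29 (SE 0.29) and 0.42 (SE 0.29) in WT and null slices and followed Idi1 with r of 0.80, so the split of reads between them is uncertain.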

How the data were processed

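RNA from 16 heart slice cultures was sequenced. According to the study's methods, the authors aligned paired-end reads to GRCm38 (mm10 per the labels) with STAR and counted them per Ensembl gene with GenomicAlignments. The deposited values are raw counts. The methods and the labels name different library kits. Identifiers were matched to symbols with GENCODE vM21 (55227 of 55487). Genes with at least 10 counts in all (24971) were fitted in R 4.3.3 with edgeR 4.0.16 (TMM, robust quasi-likelihood test, 4 group means, 12 residual degrees of freedom). A gene was called at a Benjamini-Hochberg adjusted p under 0.05 over all genes and a log2 fold change beyond 0.58. CPM used TMM-scaled library sizes, and correlations used log2 CPM with a prior count of 2. Alternatives were DESeq2 1.42.0, limma 3.58.1 (voom with quality weights), other filters and scaling, a replicate block, and leaving out each library. The fits were tested on simulated data. Depth (17830351 to 29941903 counts) gave each member 244 to 1552 counts a library.

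The members, lists and rules were chosen with earlier results of these data known. Beside the members, the rule named called genes of each list, those of smallest p in the null response, up to 3 a list, the paralogs, Srebf2, Scap, Abca1 and the 10 genes most like the mean of the members. Some genes the rule names are not reported here. Of the marker lists, Dpt (fibroblast, 0.97) rose and Krt19 (mesothelial) fell by 2.25 on the log2 scale in null slices. Both moved the same way in WT slices, Dpt from a mean of 236.6 to 332.4 CPM and Krt19 from 3.21 to 1.09 CPM. Of the 4 mesothelial markers, 2 were higher and 2 lower in treated null slices. Median log2 fold changes in null slices were 2.78 for cardiomyocyte, 0.27 for fibroblast, 0.33 for endothelial, 0.59 for smooth muscle and pericyte, 0.08 for mesothelial and 0.69 for Schwann cell markers. In the pairing check, same-numbered null libraries had correlated deviations in 4 of 4 pairs (r 0.15 to 0.59), whereas 2 of 4 pairs passed 0.1 in WT (r -0.11 to 0.32). Between genotypes 2 of 4 untreated pairs (r 0.01 to 0.38) and 1 of 4 treated pairs (r -0.02 to 0.31) passed 0.1.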

Additional observations from a re-analysis of the deposited data

Results flagged for a closer look

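In each of the 32 sets of 4 libraries (8 members in 4 groups) the highest and the lowest library were compared with the rest, and 2 sets held a library apart from the others. Chance marks about 1 in 20 such sets. For Sqle in treated WT slices, replicate 3 at 40.25 CPM stood above the other libraries, which lay between 37.62 and 37.97 CPM, so that the gap was 0.865 of the range, past Dixon's limit for 4 values. For Dhcr7 in untreated Swhtr null slices, replicate 3 at 30.18 CPM stood below the others, between 31.75 and 31.83 CPM, with a gap of 0.947 of the range. In both sets the whole range was small, and the same null library was the lowest of all 16 for Hmgcs1, Sqle, Cyp51 and Insig1.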

How the results depend on the processing

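No member was called in any comparison under any of the 26 settings tried, which include the replicate block and leaving out each library. Under the replicate block with all 16 libraries the lowest adjusted p of a member in the null response was 0.0817 by edgeR. The block on the libraries compared was chosen after seeing the data. It called 608 genes in the null and 31 in the WT response, where edgeR on the same libraries without the block called 6 and 1. DESeq2 on the libraries compared called 316 and 30 genes, DESeq2 on all libraries 464 and 9, and limma 224 and 5.

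Over all settings the median of the members stayed between 0.05 and 0.23 in the WT response, 0.13 and 0.28 in the null response, -0.26 and -0.10 between untreated and -0.19 and -0.06 between treated genotypes, and -0.03 and 0.12 for the difference of the responses. Single libraries set most of these ends. Without WT untreated replicate 4 the median was 0.05 in the WT response, without WT untreated replicate 2 it was 0.23 there and -0.10 between untreated genotypes. Without Swhtr null untreated replicate 3 it was 0.13 in the null response.

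Of 40 log2 fold changes (8 members, 5 comparisons), 13 changed sign under some setting, each time to a value no further from 0 than 0.069. With limma, Dhcr7 was at -0.016 between untreated genotypes and Lss at -0.006 for the difference. With libraries left out in turn, the WT response ran from -0.068 to 0.018 for Lss, -0.013 to 0.332 for Cyp51 and -0.113 to 0.003 for Dhcr7, and the null response from -0.003 to 0.162 for Fdft1 and -0.107 to 0.019 for Lss. Between untreated genotypes it ran from -0.123 to 0.048 for Sqle, -0.151 to 0.008 for Fdft1 and -0.062 to 0.051 for Dhcr7, and between treated ones from -0.202 to 0.005 for Idi1 and -0.162 to 0.007 for Insig1. The difference ran from -0.014 to 0.273 for Idi1, -0.118 to 0.046 for Fdft1 and -0.069 to 0.056 for Lss. Among values that kept their sign, those of the WT response ran from 0.073 to 0.361 for Idi1, 0.094 to 0.344 for Insig1 and 0.048 to 0.221 for Hmgcs1, the low end each time without WT untreated replicate 4. Between untreated genotypes they ran from -0.376 to -0.089 for Idi1, -0.393 to -0.143 for Insig1 and -0.319 to -0.170 for Hmgcs1. Depth was not varied.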
